A study of Mus musculus with 12 samples.

Results

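The long noncoding RNAs Neat1 and Malat1 were followed through 7 m6A peaks, 5 of Neat1 and 2 of Malat1, out of 37118 peaks in the deposited table. A peak was a member when its annotation held either symbol, whatever its values. All 7 passed the filter on low counts, which kept 37088 peaks. The table comes from methylated RNA immunoprecipitation (MeRIP-seq), in which RNA fragments bound by an antibody against N6-methyladenosine (m6A) are sequenced and regions rich in reads are called as peaks. The livers came from wild-type male C57BL/6 mice that were 6 to 8 weeks old when housed. The 3 control samples received 0 mg/kg/day CdCl2 by gavage and the 3 cadmium samples 20 mg/kg/day, all up to day 90, and the replicates of each group are labelled as batches 1, 2 and 3. The labels also describe 6 input libraries, which were not analysed here, so that a difference in peak counts cannot be divided into RNA amount and methylated share. In whole liver, fewer cells of a type and less RNA per cell cannot be told apart either.

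Neat1 and Malat1 are abundant RNAs that stay in the nucleus and are not translated. Neat1 is the scaffold of paraspeckles, nuclear bodies that form on its long isoform together with RNA-binding proteins such as SFPQ and NONO. A short isoform shares the 5′ part with the long one and ends at an early polyadenylation site, and it cannot build paraspeckles by itself. Malat1 collects in nuclear speckles, which are rich in splicing factors, and its 3′ end is folded into a stabilising triple helix. Malat1 is known to carry m6A, which alters its local fold and the binding of proteins to it. Neat1 rises in many cell types under stress.

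Both genes lie on chromosome 19, read from the same strand and 22036 bases apart, at 5824708 to 5845480 for Neat1 (20773 bases) and 5795690 to 5802672 for Malat1 (6983 bases) in the RefSeq table of GRCm38.p6, the assembly of the mm10 build of the files. The Neat1 peaks are numbered here from the 5′ end. Peaks 1 (5844686 to 5845457), 2 (5843220 to 5844549), 3 (5842891 to 5843019) and 4 (5842334 to 5842698) all fell within the first 3146 bases. Peak 5 (5834788 to 5834893) stood alone after a gap of 7441 bases, 10587 bases from the 5′ end, and the last 10080 bases of the gene held no peak. From general knowledge of the locus, peaks 1 to 4 lie in the part that both isoforms share and peak 5 only in the long isoform. The gene tables used here give 2 Neat1 transcripts without their ends. Malat1 peak 1 (5800699 to 5802639) began 33 bases from the 5′ end and peak 2 (5798720 to 5799378) began 3294 bases from it. Peaks covered 12.98% of Neat1 and 37.2% of Malat1.

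Peak 1 of Neat1 also carried the symbols Gm27505 and Gm28006, peak 2 Gm27533, and the Malat1 peaks Gm37376 and Gm27694. No source used here says whether the authors counted by strand, so reads of such overlapping genes cannot be told apart. Neat1 peaks 3, 4 and 5 were annotated to Neat1 alone.

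The start of Malat1 is printed because its largest m6A peak reaches almost to the first transcribed base. The window is chr19:5802623-5802922 of GRCm38.p6, minus strand, from RefSeq, and ends 50 bases into the transcript. Capitals mark the 17 bases inside Malat1 peak 1.
Malat1: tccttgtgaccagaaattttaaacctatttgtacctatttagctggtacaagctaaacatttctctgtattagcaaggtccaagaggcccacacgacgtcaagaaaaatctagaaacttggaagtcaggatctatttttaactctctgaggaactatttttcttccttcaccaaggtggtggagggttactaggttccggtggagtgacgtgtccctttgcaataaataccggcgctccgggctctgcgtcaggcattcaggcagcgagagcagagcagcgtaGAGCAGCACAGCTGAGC
The letters GGACT, a common form of the m6A consensus, were not found on either strand of this window, whereas 45.5% of 32851 promoter windows of the same length held them. Most of this window is not transcribed, and only 17 of its bases lie in the peak. Their absence here therefore says nothing about the consensus in Malat1 peak 1, whose remaining sequence was not read.

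Both Malat1 peaks were above every Neat1 peak, in level and in level per kilobase. Levels are given as CPM, counts scaled to a common library size with edgeR's normalisation. Malat1 peak 1 ranked 38th of 37088 peaks and peak 2 ranked 210th, and the Neat1 peaks ranked between 919 (peak 2) and 14723 (peak 5). Of all counts in a sample, the Malat1 peaks together made up 0.119% to 0.206% and the Neat1 peaks 0.0164% to 0.0463%. Per kilobase of peak, control samples averaged 454 CPM over the summed Malat1 peaks and 67.5 CPM over the summed Neat1 peaks. Among the Neat1 peaks the order of level per kilobase changed with the group: peak 5 was the highest in control samples (126 CPM per kb, against 51.4 to 96.6 for the others) and the lowest in cadmium samples (73.5 CPM per kb, against 98.2 to 149.6). The samples of peaks 5 and 1 overlapped in control livers, and in cadmium livers those of peak 5 overlapped with those of peaks 1, 2 and 4.

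**Figure D1:**
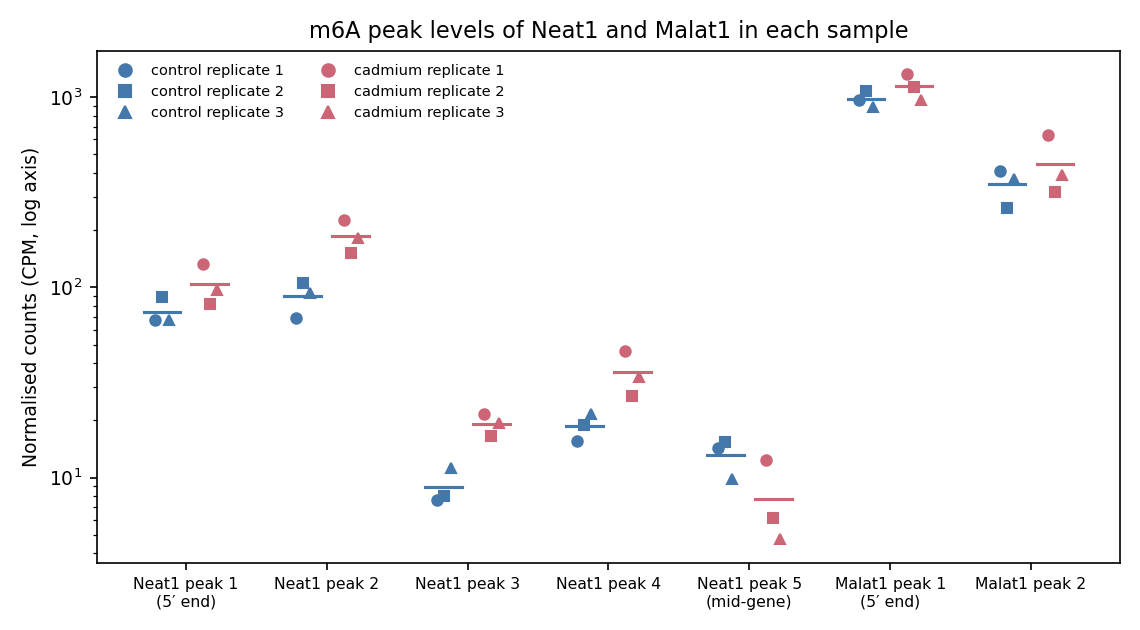
Normalised counts (CPM, log axis) of the 5 Neat1 and 2 Malat1 peaks in each of 3 control (blue) and 3 cadmium (red) samples, with bars at group means and marker shapes for replicates. At Neat1 peaks 2, 3 and 4 every cadmium sample lies above every control sample, while at Neat1 peak 5 the cadmium mean (7.72 CPM) is below the control mean (13.2 CPM).

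The comparison of cadmium with control livers asked whether the peaks of these RNAs differ after exposure. Neat1 rose at 3 of its 5 peaks (peaks 2, 3 and 4, each 1.91-fold to 2.14-fold) and Malat1 at 0 of 2 (edgeR quasi-likelihood test, Benjamini-Hochberg adjusted p below 0.05 over all peaks). Across all peaks 6.27% passed, 3.55% higher and 2.72% lower in cadmium samples. No member fell by this test, yet Neat1 peak 5 had a log2 change below 0, opposite in sign to the other 6 members.

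Neat1 peak 2, the largest by counts, stood at 69.3, 105.7 and 93.9 CPM in control replicates 1, 2 and 3 and at 226, 152 and 182 CPM in cadmium replicates 1, 2 and 3. The groups did not overlap, which held in the upward direction for 14.4% of all peaks. The control mean was 89.6 ± 18.6 CPM and the cadmium mean 187 ± 37.4 CPM (SD, n = 3), for a log2 change of 1.06 (SE 0.20, adjusted p = 0.013). Without cadmium replicate 3 its adjusted p was 0.0542.

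Neat1 peak 3 was at 7.64, 8.03 and 11.2 CPM in control replicates 1 to 3 and at 21.6, 16.5 and 19.4 CPM in cadmium replicates 1 to 3. Its groups did not overlap either, and it had the steepest rise of the members, a log2 change of 1.10 with an SE of 0.19 (adjusted p = 0.00923). This call was kept in all 6 fits that left out 1 sample (adjusted p 0.0116 to 0.0487).

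Neat1 peak 4, the closest of the cluster to the early polyadenylation site, was at 15.6, 18.8 and 21.6 CPM in control and 46.5, 26.9 and 33.9 CPM in cadmium replicates 1 to 3. The groups were again separate, with cadmium replicate 1 the highest, and the log2 change was 0.93 (SE 0.21, adjusted p = 0.0291). Its call was lost in 5 of 6 leave-outs (adjusted p 0.0581 to 0.0937) and kept without cadmium replicate 2 (0.0162).

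Neat1 peak 1, at the 5′ end, did not pass. It was at 67.6, 88.8 and 67.2 CPM in control replicates and 133, 82.1 and 96.8 CPM in cadmium replicates 1 to 3, so that cadmium replicate 2 lay below control replicate 2. Its log2 change was 0.48 (SE 0.20, adjusted p = 0.186).

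Neat1 peak 5, inside the long isoform, was at 14.4, 15.4 and 9.85 CPM in control replicates 1 to 3 and at 12.3, 6.15 and 4.72 CPM in cadmium replicates 1 to 3. The raw counts were 705, 772 and 435 against 520, 340 and 217. Cadmium replicate 1 was above control replicate 3, so the groups overlapped, although the cadmium sample was the lower one in each batch (log2 differences -0.22, -1.32 and -1.06 in batches 1, 2 and 3). The log2 change was -0.78 (SE 0.32, adjusted p = 0.18). It was called lower with the replicate as a block (adjusted p = 0.0446) and without cadmium replicate 1 (log2 change -1.27, adjusted p = 0.0232), and in the other leave-outs the log2 change came as close to 0 as -0.52 with an adjusted p of up to 0.488.

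**Figure D2:**
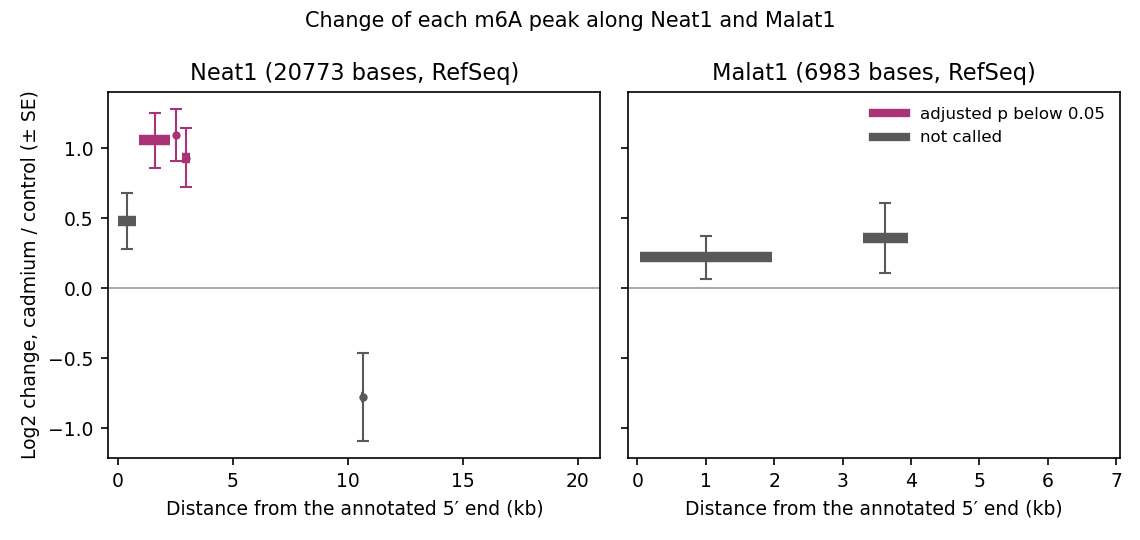
Log2 change of each peak (cadmium over control, approximate SE as error bars) against distance from the annotated 5′ end in kilobases, for Neat1 (left) and Malat1 (right), with horizontal bars for peak width and purple for called peaks. The Neat1 peaks near the 5′ end lie at 0.48 to 1.10, the Neat1 peak beyond 10 kb at -0.78, and both Malat1 peaks at 0.22 and 0.36.

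The change along Neat1 was also taken within each sample, as the counts in peaks 1 to 4 divided by those in peak 5, a ratio that library scaling cannot alter. The ratio was 11.2, 14.4 and 19.7 in control replicates 1 to 3 and 34.8, 45.1 and 70.4 in cadmium replicates 1 to 3. Every cadmium sample was above every control sample. How often ratios between the peaks of other genes separate in this way was not taken. The log2 ratio was 3.88 ± 0.41 in control and 5.58 ± 0.51 in cadmium samples (SD, n = 3), a 3.27-fold difference (exact two-sided permutation p = 0.1, the smallest that 3 against 3 samples can give). The log2 difference was close to equal in the batches, at 1.64, 1.65 and 1.84 in batches 1, 2 and 3, and it was 1.43 to 1.94 with any 1 sample left out. With peaks 3 and 4 alone over peak 5, the peaks that carry no other symbol, it was 1.85.

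As shares of the Neat1 counts, peak 5 held 8.23%, 6.50% and 4.84% in control and 2.79%, 2.17% and 1.40% in cadmium replicates 1 to 3. Peak 1 held 36.4% ± 3.03 in control and 29.3% ± 0.861 in cadmium samples (SD, n = 3), and peak 2 held 43.5% ± 3.34 and 53.0% ± 1.41. For each of these 3 peaks the groups did not overlap (exact two-sided permutation p = 0.1 each, the smallest possible, and 0.167 adjusted over the 5 shares). The part of peaks in other genes whose shares separate in this way was not taken. The shares of peak 3 (4.42% and 5.49%) and peak 4 (9.18% and 10.03%) had permutation p of 0.2 and 0.5. Shares of 1 RNA sum to a whole and are not independent of each other.

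Whether a peak departs from the rest of its gene was tested across all genes with diffSpliceDGE of edgeR, with each peak assigned to the first symbol of its annotation. That places peaks 1 and 2 under other symbols and leaves peaks 3, 4 and 5 for Neat1. Peak 5 lay below its gene (relative log2 change -1.39, unadjusted p = 0.000165), but 0 Neat1 peaks passed (adjusted p = 0.12 for peak 5), where 0.0833% of 31227 peaks did. With all 5 Neat1 peaks kept together, an alternative added after the data were seen, peak 5 departed (relative log2 change -1.56, adjusted p = 0.0145, with 0.0865% of 31231 peaks called) and the other 4 did not (adjusted p of 1.00 each). That call was lost without control replicate 1 or 2 or cadmium replicate 2 or 3 (adjusted p 0.0512 to 0.497). Without cadmium replicate 1, peak 5 departed under both assignments (adjusted p = 0.0115 and 0.000555).

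The log2 changes within Neat1 spanned 1.87, from peak 5 to peak 3. A larger span was found in 22 of 7567 genes with 2 or more peaks (0.291%), whose median span was 0.23. In the 1487 genes whose lowest peak was at least as abundant as Neat1 peak 5, a larger span was found in 0. The genes were not matched for their number of peaks, and a span tends to widen with more peaks. The level cut was set by Neat1 peak 5 itself, an end of the Neat1 span. The span of Malat1 was 0.14.

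Over the 6 samples the 4 peaks near the 5′ end of Neat1 moved together, with Pearson correlations of log2 CPM between 0.71 (peaks 1 and 3) and 0.97 (peaks 2 and 4). Peak 5 correlated with them at -0.07 to -0.66. These are descriptions over 6 samples that include both groups, and peaks of 1 RNA share libraries.

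Malat1 peak 1 was at 963, 1079 and 887 CPM in control replicates 1 to 3 and 1323, 1130 and 965 CPM in cadmium replicates 1 to 3. The groups overlapped, with cadmium replicate 3 between the control samples. The log2 change was 0.22 (SE 0.15, adjusted p = 0.437). Malat1 peak 2, near the middle of the gene, was at 411, 262 and 373 CPM in control and 634, 317 and 389 CPM in cadmium replicates 1 to 3. Cadmium replicate 1 was the highest and control replicate 2 the lowest, and the log2 change of 0.36 (SE 0.25, adjusted p = 0.448) did not pass.

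The ratio of Malat1 peak 1 to peak 2 followed the batch more than the group. It was 2.34, 4.12 and 2.38 in control and 2.09, 3.56 and 2.48 in cadmium replicates 1 to 3, so both samples of batch 2 were the highest. The log2 difference between groups was -0.11 (exact two-sided permutation p = 0.7) and turned to 0.16 without control replicate 2 and to 0.06 without cadmium replicate 1.

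**Figure D3:**
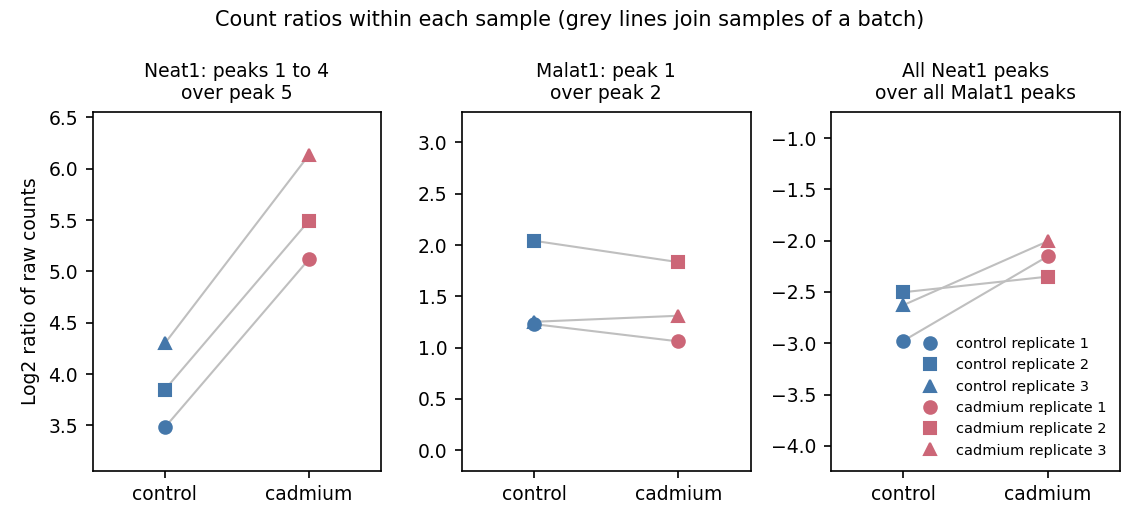
Log2 ratios of raw counts within each sample, with grey lines joining the control and cadmium sample of a batch and every panel spanning the same range of log2 units. The Neat1 ratio of peaks 1 to 4 over peak 5 goes from 3.48 to 4.30 in control samples to 5.12 to 6.14 in cadmium samples, while the Malat1 ratios of the groups overlap.

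Summed over their peaks and tested beside the sums of all genes, Neat1 was 1.71-fold higher in cadmium samples. Its summed level was 159, 207 and 180 CPM in control and 394, 246 and 293 CPM in cadmium replicates 1 to 3, without overlap, a separation upwards that 16.9% of all genes also had. The log2 change was 0.77 (SE 0.18, adjusted p = 0.0292), where 10.2% of 13050 genes passed, 5.98% higher and 4.17% lower. This call was lost with the replicate as a block (adjusted p = 0.0542), with singly annotated peaks only (0.0629), and without control replicate 1 or 3 or cadmium replicate 1 or 3 (0.0542 to 0.0858). Malat1 was at 1251, 1173.5 and 1114 CPM in control and 1752, 1256 and 1178 CPM in cadmium replicates 1 to 3, with a log2 change of 0.24 (SE 0.16, adjusted p = 0.376). Cadmium replicate 1 set much of that difference, which was 0.06 without it.

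The ratio of Neat1 to Malat1 counts was 0.127, 0.176 and 0.162 in control and 0.225, 0.196 and 0.249 in cadmium replicates 1 to 3. All cadmium samples were above all control samples, by 1.45-fold on average (exact two-sided permutation p = 0.1, the smallest possible). Ratios between other pairs of genes were not taken for comparison. The log2 difference was 0.82, 0.15 and 0.62 in batches 1, 2 and 3. It was 0.19 when the largest peak of each RNA was left out.

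In the authors' deposited table, Neat1 peaks 2 and 3 are marked Up (log2 fold changes 1.05 and 1.09, adjusted p = 1.98e-05 and 1.1e-05) and the other 5 members NotSig. Among the latter is Neat1 peak 4, with 0.93 and an adjusted p of 0.00079 in the authors' deposited table. DESeq2 run on the same counts gave the same values for these peaks and called Neat1 peaks 2, 3 and 4.

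The 5 genes whose summed level followed Neat1 most closely over the 6 samples, out of 6521 at or above the median level, were Pnrc2, Birc3, Shank2, Cdc14b and Hjv (Pearson r of log2 CPM 0.98 to 0.99). Their log2 changes were 0.37, 0.41, 0.85, 0.42 and 0.57, and Shank2 alone passed the test (adjusted p = 0.0179, and 0.0514 to 0.0696 without control replicate 1 or 3 or cadmium replicate 3). Of all genes 5.98% passed higher and 4.17% lower. The 5 genes were picked by correlation with Neat1 over these same 6 samples, so log2 changes above 0 follow from the choice. High correlations are also easily reached when many genes are searched over 6 samples. For Malat1 they were Ehbp1, Ubxn7, Gm15343, Spatc1l and Bclaf1 (r 0.97 to 0.98), of which Gm15343 and Spatc1l had equal values in every sample. None of these 5, picked in the same way, passed the test (log2 changes 0.13 to 0.27), beside 10.2% of all genes. Neat1 and Malat1 correlated with each other at 0.73 over the 6 samples.

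Genes of paraspeckle proteins, which bind Neat1, fell at 2 of 28 tested members by edgeR and rose at 0. Of all genes 4.17% fell and 5.98% rose, 10.2% together. The median log2 change of the list was -0.10, beside -0.003 over all genes. The first of the 2 that fell was Sfpq, which encodes an RNA-binding protein needed to build paraspeckles. Its summed peaks were at 69.2, 76.0 and 89.7 CPM in control and 53.9, 42.3 and 44.1 CPM in cadmium replicates 1 to 3. The means were 78.3 ± 10.4 CPM and 46.7 ± 6.25 CPM (SD, n = 3). Sfpq fell by 0.74 log2 units with an SE of 0.14 (adjusted p = 0.0138, and 0.0721 without cadmium replicate 3). The other was Fam98a, a gene of a protein found in RNA-protein complexes (log2 change -0.52, SE 0.13, adjusted p = 0.0333), whose call was lost in 4 of 6 leave-outs (adjusted p up to 0.146) and with library totals in place of TMM (0.167). Nono and Pspc1, which encode the partners of SFPQ and were chosen after their values were seen, had log2 changes of 0.07 and -0.10 (adjusted p = 0.749 and 0.8). DESeq2 called 3 genes of the list, Sfpq and Fam98a lower and 1 other higher. Unadjusted edgeR p below 0.05 were found for 6 of the 28, in both directions. The share of all genes below that value was not taken, but is at least the 10.2% that passed after adjustment.

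Genes of nuclear speckle proteins, the neighbours of Malat1 in the nucleus, passed at 0 of 29 tested members by edgeR, beside 10.2% of all genes. By DESeq2 0 passed. An unadjusted edgeR p below 0.05 was found for 3 of the 29. The share of all genes below that value was not taken, but is at least the 10.2% that passed after adjustment. Of the 29 log2 changes 22 were below 0 (median -0.18, beside -0.003 over all genes). The smallest p belonged to the splicing regulators Rbm25 (log2 change -0.52, adjusted p = 0.114) and Srsf4 (-0.33, adjusted p = 0.145). Among 12 tested genes of nuclear m6A writers, readers and erasers 0 passed by edgeR, beside the same 10.2% of all genes. By DESeq2 0 passed, and 1 of the 12 had an unadjusted edgeR p below 0.05, beside the same share of at least 10.2%. Their median log2 change was -0.02, and 0.03 with library totals in place of the normalisation. The lowest p were those of Rbm15b, a subunit that directs the writer complex to RNA (-0.38, adjusted p = 0.175), and the demethylase Alkbh5 (-0.18, adjusted p = 0.404). Mettl16, whose protein binds the Malat1 triple helix (-0.03), and the nuclear m6A reader Ythdc1 (0.0057), both chosen after their values were seen, lay near 0.

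Of 20 tested symbols listed as other long noncoding RNAs, Gm37376 holds only Malat1 peak 1 and was left out after this was seen. Of the remaining 19, 3 passed, 2 higher and 1 lower, beside 5.98% higher and 4.17% lower over all genes. Their log2 changes were above 0 in 15 of 19 (median 0.20). Snhg11, a host gene of small nucleolar RNAs, was low in all samples, at 0.742, 1.10 and 0.761 CPM in control and 2.18, 2.98 and 4.96 CPM in cadmium replicates 1 to 3. Its rise of 1.95 log2 units had an SE of 0.33 (adjusted p = 0.00939). Jpx, an X-linked noncoding RNA known as an activator of Xist, rose by 0.55 (SE 0.14, adjusted p = 0.0346), and 2 of its 3 peaks were shared with other symbols. Its call was lost in all 6 leave-outs (adjusted p 0.0636 to 0.0995) and with library totals in place of TMM (0.0705). Mir22hg, the host transcript of the microRNA miR-22, fell by 0.85 (SE 0.14, adjusted p = 0.00919), and all 3 of its peaks were shared with other symbols, among them Tlcd2.

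Genes beside Neat1 and Malat1 on chromosome 19 passed at 1 of 14 tested members, beside 10.2% of all genes. The one that passed was Ehbp1l1 (log2 change 0.55, SE 0.12, adjusted p = 0.0212, and 0.0789 and 0.0898 without control replicate 3 or cadmium replicate 3). The genes named for the closest peaks on the 5′ side of Neat1, Frmd8 and Frmd8os, chosen after their values were seen, had log2 changes of 0.05 and 0.17 (adjusted p = 0.856 and 0.629).

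**Figure D4:**
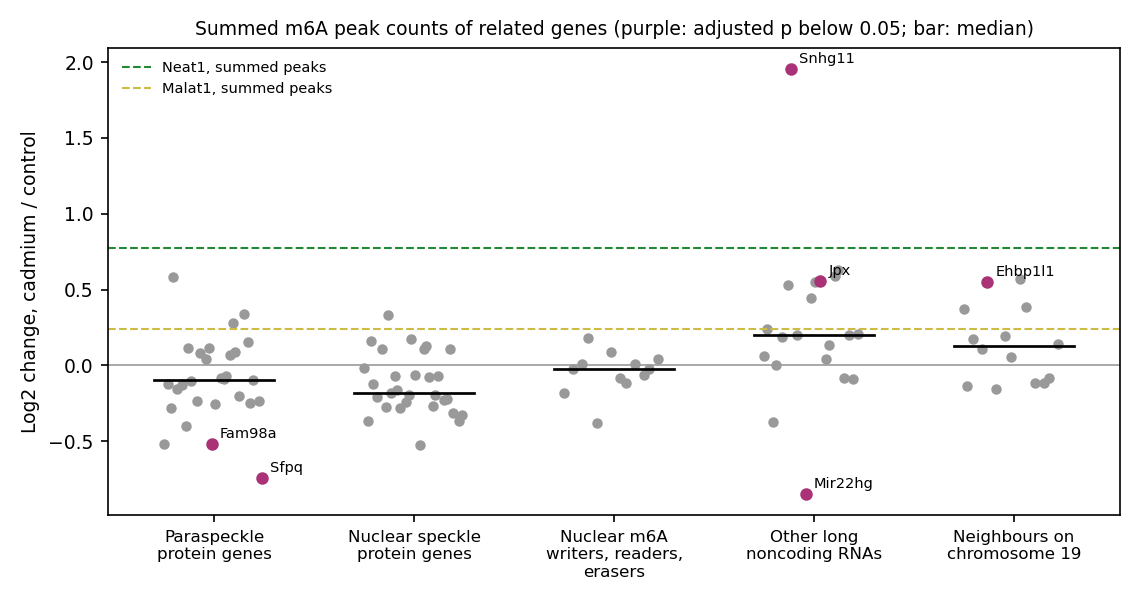
Log2 change (cadmium over control) of the summed peaks of each tested gene in 5 lists, with black bars at list medians, purple for an adjusted p below 0.05, and dashed lines at the values of Neat1 (0.77) and Malat1 (0.24). Sfpq and Fam98a are the called paraspeckle protein genes and lie below 0, on the other side from Neat1.

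Peak counts totalled 40174736 to 52338612 per sample, lowest in cadmium replicate 1, which was also the highest sample at 6 of the 7 members. Summed hepatocyte markers were at 30500 to 31500 CPM in control and 25800 to 30200 CPM in cadmium samples, with Tat lower of 8 tested. Markers of Kupffer cells and other macrophages were at 130 to 187 and 204 to 259 CPM (1 of 5 tested higher, Cd5l), and those of stellate cells at 95.7 to 124 and 145 to 182 CPM (2 of 5 higher, Lrat and Col1a1). Leukocyte markers were at 1.98 to 2.58 and 2.90 to 4.13 CPM (0 of 2 called). Endothelial (108 to 167 and 113 to 163 CPM), biliary (6.05 to 8.31 and 6.69 to 26.4 CPM) and erythroid (41.6 to 68.9 and 34.7 to 119 CPM) sums overlapped between groups. Adgre1, Cd68, S100a8, S100a9, Cd79a, Clec4g, Krt19, Krt7 and Hbb-bs were not among the genes tested. The macrophage, stellate and leukocyte sums were higher in every cadmium sample than in any control sample, as were Neat1 peaks 2, 3 and 4, and the hepatocyte sum was lower in every cadmium sample. Of all single genes, 16.9% were separated upwards in the same way, and the share separated downwards was not taken. Called higher were 5.98% of all genes and called lower 4.17%. The part of these cell types in the Neat1 result was not tested.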

How the data were processed

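The deposited table holds raw counts per peak, deposited as whole numbers without normalisation, judged from their values, for 6 samples, and the authors' log2 fold change, p-value and adjusted p-value per peak. The submitters' processing notes name the build mm10 and, without roles or settings, MACS2 (2.1.1) and STAR (2.7.1a), together with SAMtools (1.3.1), cutadapt (1.1.8) and a DESeq2 version written as 4.1.0. Column headers match library numbers that an IP and an input library share, and were read as IP because the rows are m6A peaks. Whether peak calling used pooled or single samples is not stated in the sources at hand.

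The test was that of edgeR 4.0.16, run in R 4.3.3 (TMM, filterByExpr with minimum count 10 and minimum total 15, quasi-likelihood F test, Benjamini-Hochberg over all features, threshold 0.05), per peak and summed per gene symbol, a peak with several symbols counting for each. The gene table has its own library sizes, so its CPM differ from those of peaks. Each SE is approximate, the size of the log2 change over the root of its F value. Departure from the gene used diffSpliceDGE. Alternatives were DESeq2 1.42.0, other scalings, no filter, a replicate block and leaving out each sample, and scripts were tested on simulated data.

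The members and lists were chosen with earlier results of these data known. Named were all member peaks, the called genes of each list or else the 2 with the smallest p, and the 5 genes most correlated with each RNA (log2 of CPM plus 0.5). The values of 1 gene of the paraspeckle list are not reported here. The first-symbol rule for diffSpliceDGE left no peak for Malat1, so an assignment that keeps each RNA's peaks together was added after the data were seen. The strand of Neat1 is from general knowledge and that of Malat1 from the RefSeq promoter table, which matched 1 of the 2 genes. The labels name replicate numbers as batches, so they pair samples: deviations from group means correlated at 0.146, 0.214 and 0.174 within batches and at -0.173 to 0.016 across them. The labels do not say that each sample is 1 mouse, and p-values measure the spread between these samples. All replicate pairs differed by more than counting noise (chi-square per degree of freedom 31.9 to 161).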

Additional observations from a re-analysis of the deposited data

How the results depend on the processing

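Malat1 had 0 called peaks by edgeR (0 of 2 also at an unadjusted p below 0.05) and 0 by DESeq2, under all 11 alternatives, and 0 departing peaks with its peaks kept together under all 10. Called Neat1 peaks numbered 1 to 3 when 1 sample was left out, and 1 without cadmium replicate 3, against 3 with all samples; they numbered 4 with the replicate block, which added peak 5 as lower. The count of departing Neat1 peaks was 0 with first symbols, 0 to 1 in its leave-outs (1 without cadmium replicate 1), and 1 with all peaks kept together, where it was 0 with library totals in place of TMM (adjusted p = 0.059) and 0 to 1 in the leave-outs. The summed Neat1 log2 change was 0.75 with the replicate block (adjusted p = 0.0542), 0.60 with singly annotated peaks, and 0.58 to 0.92 in the leave-outs. The other scalings, the absent filter and DESeq2 left its call in place. The replicate block changed no other call of a member. The ratio of Neat1 to Malat1 moved from 0.53 to 0.19 (log2 difference) without the largest peak of each RNA. The 5′ to 3′ ratio of Malat1 ran from -0.32 to 0.16 in the leave-outs, with the sign turned without control replicate 2 (0.16) or cadmium replicate 1 (0.06). In the same 2 leave-outs the relative log2 changes of the Malat1 peaks turned sign, within ranges over all leave-outs of -0.079 to 0.230 for peak 2 and -0.092 to 0.032 for peak 1. Malat1 ratios could not be taken from singly annotated peaks or without its largest peak, since no pair of peaks was left. The causes were not tested. Neat1 peak 5 rests on 217 to 772 counts per sample.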
